A study of Arabidopsis thaliana with 8 samples.

Results

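The BAG family of Arabidopsis thaliana comprises the 7 genes BAG1 to BAG7, taken here as the rows of the expression table with the loci AT5G52060 (BAG1), AT5G62100 (BAG2), AT5G07220 (BAG3), AT3G51780 (BAG4), AT1G12060 (BAG5), AT2G46240 (BAG6) and AT5G62390 (BAG7). They are 7 of 27655 gene rows, and all 7 passed the filter on low values. Messenger RNA was measured in 8 libraries of whole seedlings of the Columbia background (Col-0), 7 days old and raised at 22 °C in long days (16 h light, 8 h dark). The 4 groups were the T-DNA insertion line prp43a-1 (prp43a below) after 16 h at 38 °C, Col-0 wild type after the same heat, untreated prp43a and untreated wild type, with 2 libraries each. The mutant is 1 insertion line, and the series describes PRP43a as part of the disassembly of the splicing machinery. The libraries of a group are labelled biological replicates. Without a stated hour of harvest, time of day and heat cannot be told apart, and in whole seedlings fewer cells of a type and less RNA per cell cannot be told apart.

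BAG proteins share the BAG domain, which binds the ATPase domain of HSP70 chaperones and promotes the exchange of their nucleotide, so that a folding client is released. BAG1 to BAG4 also carry a ubiquitin-like domain, as animal BAG1 does. BAG5 to BAG7 carry instead an IQ motif that binds calmodulin, the calcium sensor, a combination known from plants. BAG5 works in mitochondria, BAG6 is known as a heat-induced gene that also acts in autophagy and in defence against the fungus Botrytis cinerea, and BAG7 resides in the endoplasmic reticulum, where it binds the HSP70 chaperone BiP.

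Heat split the family. BAG6 rose 17.2-fold in prp43a and 17.9-fold in wild type, while BAG1, BAG2 and BAG3 fell by factors of 2.28 to 4.04 in prp43a and 2.00 to 3.31 in wild type, and BAG7 fell by factors of 1.62 and 1.47 (ratios of mean TPM). BAG4 rose by factors of 1.50 and 1.42, a rise that was lost under other scalings, and BAG5 did not pass the test. The heat and control libraries did not overlap for 7 of 7 members in prp43a and 6 of 7 in wild type, against 85.8% and 83.9% of all genes tested. In all, 2 members rose and 4 fell in each genotype. Among the 19697 genes tested, 70.1% passed with heat in prp43a and 70.0% in wild type, so 6 of 7 members is near the share of all genes. By direction, 43.1% of genes rose and 27.0% fell in prp43a, and 42.4% rose and 27.6% fell in wild type. The median log2 fold change was -0.69 over the BAG genes and 0.28 over all genes tested in prp43a, and -0.55 and 0.25 in wild type. No member passed a test between prp43a and wild type, at either temperature.

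The values are TPM, in which reads are divided by gene length and then brought to a total of 1000000 per library, so levels of different genes can be set side by side. Low TPM values lay on whole multiples of the worth of 1 read, and the totals recovered from these steps were 4071041 to 4783641 reads or read pairs per library. A gene is said to rise or fall where its adjusted p in limma (a moderated linear model fitted over all genes tested) was below 0.05. Fold changes given as log2 are on the log2(TPM + 1) scale, which understates the change of low genes. The helicase gene AT3G62310 was lower in prp43a at both temperatures (limma adjusted p = 0.00023 with heat and 2.3e-05 without). It stood at 10.3 and 8.24 TPM in heated prp43a against 64.6 and 72.4 TPM in heated wild type, and at 1.68 and 1.44 TPM in untreated prp43a against 26.7 and 29.8 TPM in untreated wild type. Neither the labels nor the table ties PRP43a to a locus, so this difference sets the genotypes apart but cannot show which is the mutant. The related helicase gene AT2G47250 did not pass between the genotypes (limma adjusted p = 1.0 with heat and 0.077 without). Wild-type control replicate 1 stood apart from the other control libraries on the second principal component of all genes; without it, 5 of 7 members passed with heat in wild type, BAG4 being lost (log2 fold change 0.48, limma adjusted p = 0.059), and 6 of 7 in prp43a. Summed markers of leaf and root also differed with heat. The 5 leaf markers summed to 14700 to 18800 TPM in the heat libraries and 52000 to 54300 TPM in the control libraries. The 8 root markers summed to 143 to 178 TPM and 1130 to 1350 TPM, with 6 to 7 and 5 to 8 of them above 0. Most of the root sum was 1 gene, PYK10, at 115 and 117 TPM with heat against 1300 and 1150 TPM without in prp43a, and at 151 and 107 TPM against 1070 and 1110 TPM in wild type. SCR, by contrast, averaged 19.2 TPM with heat and 17.5 TPM without in prp43a, and 15.2 and 20.1 TPM in wild type. Of 5 seed storage markers 3 (CRC, CRB and SESA2) were at 0 in every library, and the 5 summed to 1.91 to 9.66 TPM with heat and at most 0.193 TPM without. The part of these shifts in the heat results was not tested.

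**Figure D1:**
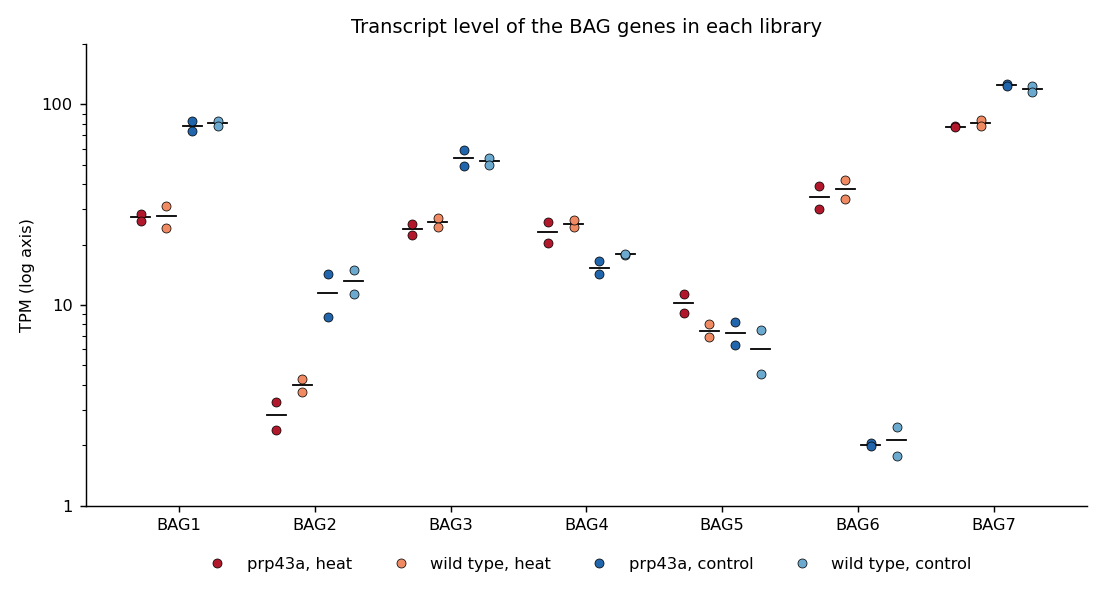
Transcript level of each BAG gene, as TPM on a log axis, with 1 point per library and a bar at the mean of each group of 2 libraries. The heat libraries of BAG6 lie at 30.0 to 41.8 TPM and its control libraries at 1.76 to 2.47 TPM, while those of BAG1, BAG2, BAG3 and BAG7 lie below their control libraries.

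In TAIR10.1, the build of the reference annotation, the genes lie on chromosomes 1 (BAG5), 2 (BAG6), 3 (BAG4) and 5 (BAG1, BAG2, BAG3 and BAG7). BAG6 spans chr2:18986133-18990220 on the plus strand, with 3 exons and a protein of 1043 residues, and BAG7 spans chr5:25051978-25054444 on the minus strand, with 3 exons and 446 residues. BAG1 (342 residues), BAG3 (303) and BAG4 (269) have 4 exons each, and BAG5 (215 residues) has 1. BAG2 has 6 annotated transcripts of 2 to 4 exons that encode 148 to 296 residues, and has 1 value per library. Its values came out as whole reads over the 1698 bases covered by the exons of all its transcripts together. They are thus values per gene and not sums over transcripts, and the level of BAG2 beside other genes depends on that length. No stretch of 75 bases within an exon of any member, the length of 1 read, had another exact copy in the same orientation in the genome. Copies in the opposite orientation and near matches were not searched, so whether every read could be assigned to 1 place was not tested. BAG7 overlaps 77 bases of AT5G62380 on the other strand, which stood at 0.262 to 1.29 TPM in the 8 libraries, against 76.9 to 126 TPM for BAG7.

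The sequence before the annotated start is shown for BAG6 and BAG4, the members that rose, and for BAG1 and BAG7, the most abundant of those that fell. It was searched on both strands for the heat shock element, the site that heat shock factors bind, built from alternating GAA and TTC units. A match to GAANNTTC or TTCNNGAA (2 units, each its own reverse complement) lay within 250 bases of the start in 2 of the 7 members, BAG6 and BAG4. The same holds for 16.1% of 27444 genes, with bases of neighbouring genes counted in the windows. A match of 3 alternating units with 2 free bases between neighbours (GAA, TTC, GAA or TTC, GAA, TTC), which contains both shorter forms, was found in none of the 7 windows and in 0.386% of all. Within 1000 bases, all 7 members had a 2-unit match, as did 52.4% of all genes. The lines run 5′ to 3′ on the gene's strand and end at the base before the start (RefSeq, TAIR10.1). They stop where a neighbouring gene begins, and capitals mark the GAA and TTC units of a match.
BAG6, chr2:18985960-18986132, plus strand: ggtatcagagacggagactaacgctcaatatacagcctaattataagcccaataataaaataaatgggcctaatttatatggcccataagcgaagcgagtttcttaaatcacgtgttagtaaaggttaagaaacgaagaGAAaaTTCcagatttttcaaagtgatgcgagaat
BAG4, chr3:19208649-19208898, minus strand: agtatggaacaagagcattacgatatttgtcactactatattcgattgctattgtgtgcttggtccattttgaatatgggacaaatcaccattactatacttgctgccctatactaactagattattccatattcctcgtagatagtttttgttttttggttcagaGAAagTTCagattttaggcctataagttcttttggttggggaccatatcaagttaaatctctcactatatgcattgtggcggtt
BAG1, chr5:21154396-21154645, minus strand: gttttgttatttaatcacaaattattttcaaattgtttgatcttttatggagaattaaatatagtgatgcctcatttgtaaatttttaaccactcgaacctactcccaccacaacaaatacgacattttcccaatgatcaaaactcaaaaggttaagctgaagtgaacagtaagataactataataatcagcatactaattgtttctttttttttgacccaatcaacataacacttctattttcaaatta
BAG7, chr5:25054445-25054613, minus strand: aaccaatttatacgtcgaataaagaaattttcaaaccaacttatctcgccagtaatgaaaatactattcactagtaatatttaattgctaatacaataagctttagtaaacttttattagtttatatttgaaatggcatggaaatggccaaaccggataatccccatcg
The match began 34 bases before the start of BAG6 and 84 bases before that of BAG4.

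BAG6 had by far the largest response of the family. It stood at 39.3 and 30.0 TPM in heated prp43a against 2.04 and 1.99 TPM in untreated prp43a. In wild type it stood at 41.8 and 33.8 TPM with heat against 2.47 and 1.76 TPM without. The means were 34.6 ± 6.59 TPM with heat against 2.02 ± 0.034 TPM without in prp43a, and 37.8 ± 5.66 TPM against 2.11 ± 0.501 TPM in wild type (SD, n = 2 each). Every heat library was above every control library, and the control libraries of both genotypes lay within a narrow band. The log2 fold change was 3.55 in prp43a (SE 0.21, 95% interval 3.09 to 4.01, limma adjusted p = 2.1e-07) and 3.64 in wild type (SE 0.21, 95% interval 3.18 to 4.10, limma adjusted p = 1.8e-07). It was the 285th highest of 19697 genes in prp43a and the 245th highest in wild type. The values rested on 285 to 433 reads in the heat libraries and 19 to 26 in the control libraries. At 19 reads, the 95% Poisson interval of 11.4 to 29.7, which covers counting error only, makes the control level and hence the fold coarse.

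BAG1, which carries the ubiquitin-like domain and binds HSC70, fell to 28.5 and 26.3 TPM in heated prp43a against 83.1 and 73.6 TPM in untreated prp43a. In wild type it stood at 24.3 and 31.1 TPM with heat and 82.3 and 78.4 TPM without. The log2 fold changes were -1.48 (SE 0.13, limma adjusted p = 3.9e-06) in prp43a and -1.51 (SE 0.13, limma adjusted p = 3.2e-06) in wild type. Of all genes tested, 10.5% in prp43a and 10.6% in wild type had a lower fold change than BAG1.

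BAG3, of the same ubiquitin-like class, stood at 25.4 and 22.3 TPM with heat against 49.2 and 59.4 TPM without in prp43a, and at 27.2 and 24.6 TPM against 54.0 and 49.9 TPM in wild type. Its libraries did not overlap between heat and control in either genotype, and its log2 fold changes were -1.15 in prp43a and -0.98 in wild type (SE 0.13 each, limma adjusted p = 2.3e-05 and 7.4e-05). BAG2, the least abundant member after heat, stood at 2.39 and 3.28 TPM with heat against 14.2 and 8.67 TPM without in prp43a. In wild type it stood at 4.30 and 3.67 TPM against 15.0 and 11.3 TPM. The log2 fold changes of BAG2 were -1.67 and -1.50 (SE 0.26 each, limma adjusted p = 0.00026 and 0.00053). It rested on 10 to 20 reads in the heat libraries and 41 to 72 in the control libraries. Relative to the mean, its control replicates were the most spread of the 4 genes of the class. Its fold is thus less certain than those of BAG1 and BAG3.

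BAG4, known for a role in salt tolerance and in stomatal movement, went the other way from its class. It stood at 25.8 and 20.4 TPM with heat against 14.2 and 16.5 TPM without in prp43a, and at 24.4 and 26.4 TPM against 17.7 and 18.0 TPM in wild type. Heat and control libraries did not overlap. The log2 fold change was 0.55 in prp43a (95% interval 0.22 to 0.89, limma adjusted p = 0.0075) and 0.49 in wild type (95% interval 0.15 to 0.82, limma adjusted p = 0.015). The median gene rose by 0.28 and 0.25, and relative to it BAG4 stood 0.28 and 0.24 higher. With median-of-ratios scaling the call was lost in prp43a (0.25, limma adjusted p = 0.14) and in wild type (0.21, limma adjusted p = 0.21), and likewise with quantile normalization (0.27 and 0.22, limma adjusted p = 0.11 and 0.18) and when some single libraries were left out.

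BAG5, the mitochondrial member, stood at 11.3 and 9.11 TPM with heat against 6.35 and 8.22 TPM without in prp43a, and at 6.90 and 8.02 TPM against 7.50 and 4.53 TPM in wild type. The libraries overlapped in wild type and not in prp43a. Its log2 differences of 0.44 in prp43a (95% interval -0.11 to 0.99, limma adjusted p = 0.14) and 0.30 in wild type (95% interval -0.25 to 0.85, limma adjusted p = 0.30) did not pass the test. BAG5 had 13 to 28 reads per library. Without wild-type control replicate 2 the wild-type value was -0.01.

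BAG7, the endoplasmic reticulum member, had the highest level of the family in every library. It stood at 78.1 and 76.9 TPM with heat against 126 and 124 TPM without in prp43a, and at 84.0 and 78.2 TPM against 123 and 115 TPM in wild type. Its fall was the smallest of the 4, with log2 fold changes of -0.69 in prp43a and -0.55 in wild type (SE 0.08 each, limma adjusted p = 4.4e-05 and 0.00022). Relative to the median gene it stood at -0.96 and -0.79.

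**Figure D2:**
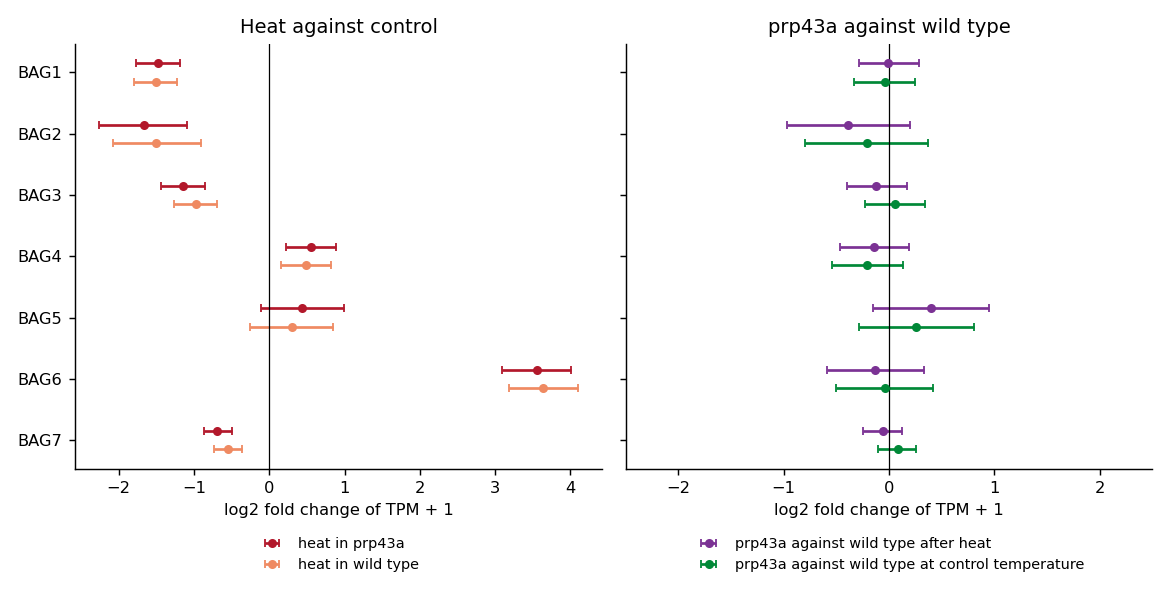
Log2 fold changes of TPM + 1 for the 7 BAG genes with 95% intervals from the fit of all 8 libraries, for heat against control in each genotype (left) and prp43a against wild type at each temperature (right). The heat estimates lie from -1.67 to 3.64, and each of the 14 intervals on the right includes 0.

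The order of levels changed with heat. In untreated seedlings of both genotypes the order by mean TPM was BAG7, BAG1, BAG3, BAG4, BAG2, BAG5 and BAG6. Neighbours in that order had separate libraries, except BAG4 and BAG2 in prp43a. After heat the order was BAG7, BAG6, BAG1, BAG3, BAG4, BAG5 and BAG2 in both genotypes. There, BAG3 and BAG4 overlapped in prp43a, and BAG1, BAG3 and BAG4 formed a run of overlapping neighbours in wild type. BAG6 thus moved to the second place, from the last, and BAG2 to the last.

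The summed TPM of the 7 genes was 188 to 213 in the heat libraries and 279 to 302 in the control libraries. BAG6 made up 15.9% to 19.6% of that sum with heat and 0.63% to 0.818% without. BAG1 made up 11.4% to 15.1% with heat and 25.1% to 28.1% without, and BAG1 to BAG4 together 37.7% to 41.7% and 54.0% to 56.5%. The share of BAG7 was nearly level, at 37.1% to 40.8% with heat and 40.7% to 42.8% without. BAG7 exceeded BAG6 by a factor of 1.99 to 2.56 in the heat libraries and 49.7 to 65.6 in the control libraries.

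**Figure D3:**
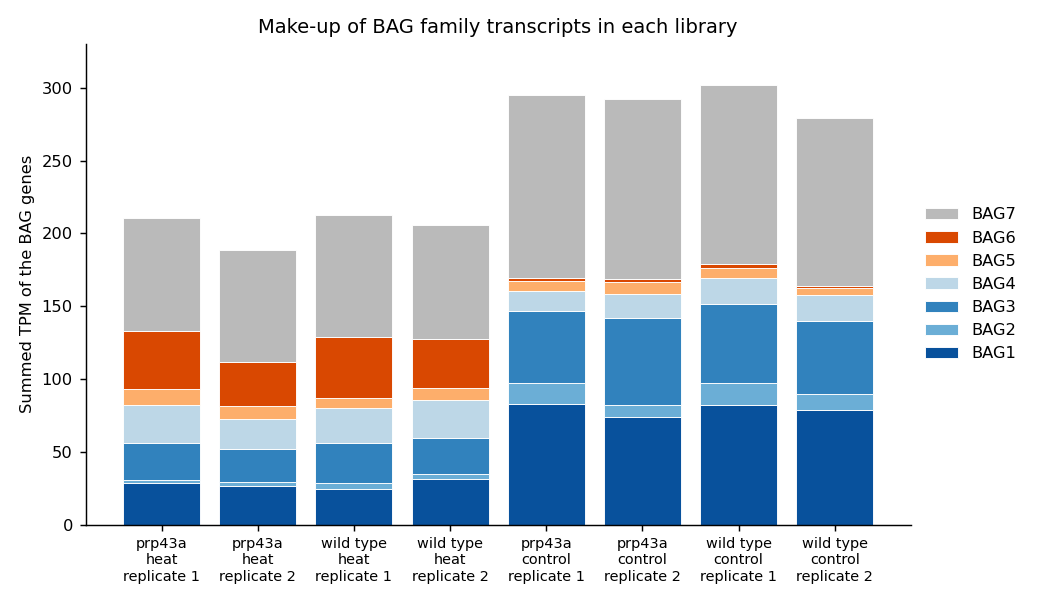
Summed TPM of the BAG genes in each library, stacked by gene. The heat libraries sum to 188 to 213 TPM with a visible share of BAG6, and the control libraries to 279 to 302 TPM, of which BAG6 is at most 0.818%.

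No BAG gene differed detectably between prp43a and wild type. With heat, 0 of 7 members passed between prp43a and wild type by limma, where 0.00508% of all genes did. An unadjusted p below 0.05 was reached by 0 members and by 899 of all 19697 genes tested. At control temperature, 0 of 7 passed, where 0.0711% of all genes did. There, 0 members and 1760 of all 19697 genes tested had an unadjusted p below 0.05. The log2 differences ran from -0.39 to 0.40 with heat and from -0.21 to 0.26 at control temperature. On the log2(TPM + 1) scale, the 95% intervals of all 7 members lay within 2-fold in both comparisons. Their outer bounds were -0.97 and 0.95 with heat and -0.80 and 0.81 at control temperature. The bound of -0.97 was that of BAG2, which averaged 2.83 TPM in heated prp43a and 3.98 TPM in heated wild type. The bound of 0.95 was that of BAG5, which averaged 10.2 TPM in heated prp43a and 7.46 TPM in heated wild type. The scale understates differences of such low genes, so in TPM the intervals of BAG2 and BAG5 may pass 2-fold. The narrowest intervals were those of BAG7, at -0.25 to 0.12 with heat and -0.11 to 0.26 at control temperature.

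After heat, the largest genotype differences were those of BAG5 and BAG2, which also had the fewest reads in the heat libraries. BAG5 stood at 11.3 and 9.11 TPM in prp43a against 6.90 and 8.02 TPM in wild type (log2 difference 0.40, limma adjusted p = 1.0). BAG2 stood at 2.39 and 3.28 TPM in prp43a against 4.30 and 3.67 TPM in wild type (log2 difference -0.39, limma adjusted p = 1.0). The libraries of prp43a and wild type did not overlap for BAG2, BAG5 and BAG7 after heat and for BAG4 and BAG7 at control temperature. Of all genes tested, 30.3% after heat and 39.5% at control temperature showed no such overlap, so 3 and 2 of 7 members are near the share of all genes. BAG7 was lower in both prp43a libraries after heat and higher in both at control temperature, by log2 differences of -0.06 and 0.08.

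The heat response itself did not differ detectably between genotypes. The difference of the heat responses, prp43a minus wild type, passed for 0 of 7 members by limma, where 0.0102% of all genes passed. It reached an unadjusted p below 0.05 for 0 of 7 members and for 1237 of all 19697 genes tested. For BAG6 it was -0.09 (95% interval -0.74 to 0.56), for BAG1 0.03 (-0.38 to 0.44), for BAG7 -0.14 (-0.40 to 0.13) and for BAG4 0.07 (-0.41 to 0.54), on the log2 scale. For BAG3 it was -0.17 (-0.58 to 0.23) and for BAG5 0.14 (-0.64 to 0.91). For BAG2 it was -0.17, with an interval whose lower bound just passed 2-fold on the log2(TPM + 1) scale and whose upper bound was 0.66.

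Genes related to the work of BAG proteins mostly rose with heat. They are called partner genes here, though the 7 lists include 11 other nucleotide exchange factors and 5 heat shock factors. These are listed as related genes and not as binding partners. Of the 36 genes in all lists, 35 passed the filter. Of these, 30 rose and 1 fell in each genotype, with a median log2 fold change of 1.61 in prp43a and 1.80 in wild type. Of all genes tested, 43.1% rose and 27.0% fell in prp43a and 42.4% rose and 27.6% fell in wild type, with medians of 0.28 and 0.25. All 6 tested cytosolic HSP70 genes, the chaperones that BAG domains bind in the cytosol, rose in both genotypes. The largest rises among them were those of HSP70-4 (AT3G12580) and HSP70T-2 (AT2G32120), with log2 fold changes of 5.06 and 5.10 in prp43a and 5.07 and 4.96 in wild type. HSC70-1, the constitutive form, stood at 2480 and 2670 TPM with heat against 977 and 898 TPM without in prp43a, and at 2630 and 2370 TPM against 844 and 865 TPM in wild type. The cytosolic HSP70 genes together had 52.5 to 67.0 times the TPM of BAG1 to BAG4 in the heat libraries and 6.22 to 7.30 times in the control libraries.

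BIP1 and BIP2, the HSP70 chaperones of the endoplasmic reticulum and partners of BAG7, rose by 2.41 and 2.76 in prp43a and by 2.48 and 2.95 in wild type on the log2 scale. BIP3, the stress-inducible BiP gene, stood at 0.381 and 0.937 TPM with heat against 1.11 and 1.52 TPM without in prp43a, and at 1.03 and 1.03 TPM against 1.18 and 1.15 TPM in wild type. It did not pass in either genotype (limma adjusted p = 0.15 and 0.79). The BiP genes together had 18.7 to 21.1 times the TPM of BAG7 with heat and 2.09 to 2.22 times without. Both mitochondrial HSP70 genes rose as well, mtHSC70-2 by 4.06 in prp43a and 3.91 in wild type and mtHSC70-1 by 1.61 and 1.80.

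The other nucleotide exchange factors of HSP70 do the same step as BAG proteins by other folds. They mostly rose with heat, while 4 of the 7 BAG genes fell and 2 rose. Of 11 genes of the HSP110, Fes1 and GrpE types, 9 rose in each genotype and none fell, with a median of 2.07 in prp43a and 2.20 in wild type. The shares over all genes tested were 43.1% risen and 27.0% fallen in prp43a, and 42.4% and 27.6% in wild type. HSP70-15, of the HSP110 type, rose by 2.93 in prp43a and 3.19 in wild type, HSP70-17 of the endoplasmic reticulum by 3.07 and 3.13, and FES1A of the cytosol by 2.88 and 3.22. FES1B and CGE2, which did not pass, had log2 fold changes of 0.23 and 0.05 in prp43a and 0.29 and 0.12 in wild type. CHIP, a ubiquitin ligase that binds HSP70, stood at 43.5 and 50.7 TPM with heat against 17.4 and 12.9 TPM without in prp43a, and at 46.2 and 42.7 TPM against 18.2 and 15.9 TPM in wild type (limma adjusted p = 9.7e-06 and 3.2e-05).

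Of 7 calmodulin genes, whose products bind the IQ motif of BAG5 to BAG7, 5 rose and 1 fell in each genotype, against 43.1% and 27.0% of all genes tested in prp43a and 42.4% and 27.6% in wild type. The median log2 fold change of the 7 was 1.37 in prp43a and 1.39 in wild type. CAM1 rose by 2.44 in prp43a and 2.60 in wild type and CAM4 by 2.20 and 2.03. CAM2 fell by 0.34 and 0.32, a call that was lost in 7 of 18 alternatives in prp43a and 12 of 18 in wild type (limma adjusted p = 0.038 in prp43a and 0.045 in wild type). All 5 class A1 and A2 heat shock factor genes rose. HSFA2, a factor known to bind heat shock elements and to raise BAG6, stood at 81.2 and 79.8 TPM with heat against 3.22 and 3.06 TPM without in prp43a, and at 94.8 and 80.6 TPM against 4.40 and 2.43 TPM in wild type. HSFA1E rose by 2.58 and 2.81. None of the 35 partner genes passed between prp43a and wild type by limma at either temperature. An unadjusted p below 0.05 was reached by 2 of them with heat and 4 at control temperature. Of all 19697 genes tested, 899 with heat and 1760 at control temperature reached it. Genes of the HSP70, BiP and calmodulin families resemble each other closely, which makes their separate read numbers uncertain.

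**Figure D4:**
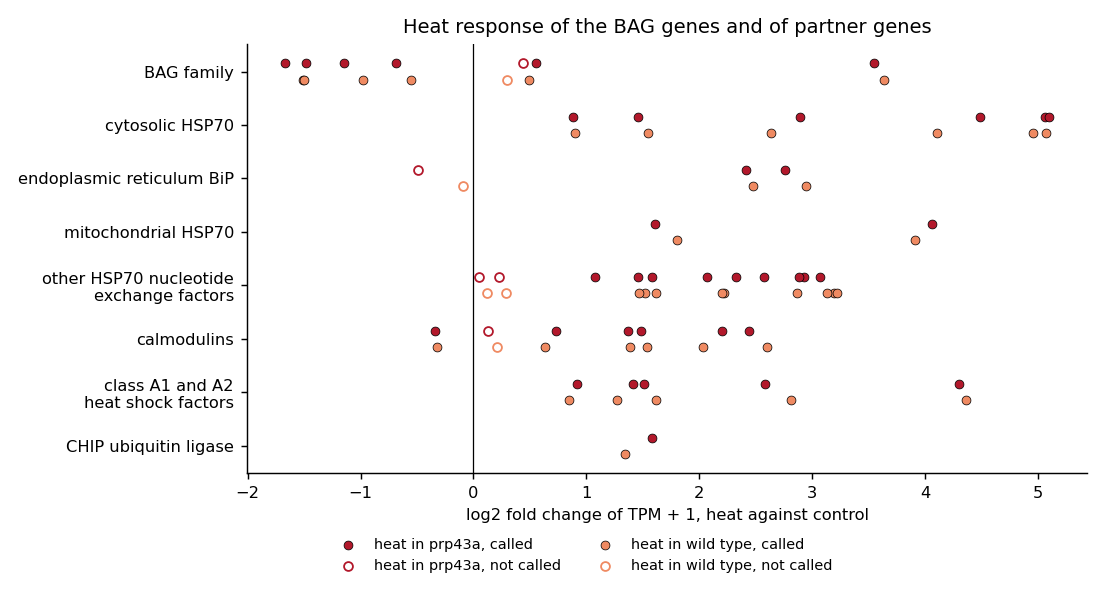
Heat response, as log2 fold change of TPM + 1, of the BAG genes and of 7 lists of partner genes, in prp43a (upper points of each row) and wild type (lower points), with filled points for genes that passed the limma test. The BAG row is the one with most filled points left of 0, and the exchange factor row has 9 of 11 filled in each genotype, all right of 0.

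Genes with the most similar pattern were named by the smallest root mean square difference from a member, over the 8 libraries, of log2(TPM + 1) centred on the gene's mean. For BAG6 these were AT4G19645 (difference 0.092, mean 34.0 TPM with heat and 2.01 TPM without), AT1G67300 (0.112) and AT2G20560 (0.118). For BAG7 they were AT4G40040 (0.040), AT5G38510 (0.045) and ARA12 (0.048), and for BAG1 IAA8 (0.055), AT4G32060 (0.064) and AT1G18460 (0.065). For BAG3 they were AT1G67180 (0.062), APT5 (0.078) and AT5G25265 (0.086), and for BAG2 DR4 (0.102), TBL6 (0.143) and AT1G68850 (0.164). AT1G67180 averaged 0.951 TPM with heat and 3.17 TPM without, and AT1G68850 averaged 0.0679 and 1.88 TPM. On the log2(TPM + 1) scale such low genes can lie near a member though their ratio of TPM is larger. For BAG4 they were AT3G07570 (0.061), ADR1-L1 (0.079) and AT2G15900 (0.081), and for BAG5 SCL8 (0.096), AT1G61420 (0.113) and AT1G76050 (0.118). Within the family, BAG3 and BAG7 were nearest to each other, at 0.24, followed by BAG1 and BAG2 at 0.27, BAG1 and BAG3 at 0.28 and BAG4 and BAG5 at 0.31. BAG6 lay farthest from the rest, at 1.55 from BAG4 to 2.60 from BAG2.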

How the data were processed

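The authors deposited 1 table of 27655 genes with TPM for each of the 8 libraries, per the file headers. Each column sums to 1000000. The submitters' processing notes name the build TAIR10. Per the labels' protocols, a stranded mRNA kit and paired 75 bp reads on a MiSeq were used. For the aligner, the counter and the strand setting: not given in the sources used here. Groups and replicate numbers came from the sample titles.

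The filter kept the 19697 genes that reached 1 TPM in 2 or more libraries. Their log2(TPM + 1) values entered limma 3.58.1 (R 4.3.3), with a mean-variance trend, 1 coefficient for each group (4 residual degrees of freedom) and the Benjamini-Hochberg method over every gene tested. The libraries are called biological replicates. If they did not come from separate cultures, the p-values measure only the spread between these samples. With 2 libraries a group, no permutation test could pass the threshold. The fit was run on simulated data in which few genes were changed. That run does not cover the heat comparisons, where most genes passed. Reads were recovered from TPM with union exon lengths of TAIR10.1 (27445 rows had a gene model): 99.2% of 126870 values up to 200 reads were whole within 0.05. Promoters were read from the same reference.

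The members and the partner lists were chosen with earlier results of these data known. The text names every member, up to 2 called genes per partner list and comparison, HSFA2, CHIP, the BiP genes and HSC70-1, and 3 genes of most similar pattern per member. FES1B, CGE2 and CAM2 were chosen after their values were seen. The alternatives were pseudocounts of 0.1 and 5, no filter, a filter of 5 TPM, median-of-ratios scaling, quantile normalization, no trend, the compared groups alone, a replicate block, each library left out, and voom on recovered reads.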

Additional observations from a re-analysis of the deposited data

How the results depend on the processing

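The heat calls of BAG1, BAG2, BAG3, BAG6 and BAG7 held their direction and stayed past the threshold in all 18 alternatives in each genotype, with BAG6 at 2.49 to 4.02 in prp43a and 2.58 to 4.12 in wild type. BAG4 lost its call in 4 alternatives in prp43a and 5 in wild type, among them median-of-ratios scaling, quantile normalization and, at limma adjusted p of 0.051 to 0.071, the fits without prp43a heat replicate 1, prp43a control replicate 1, wild-type heat replicate 2 and either wild-type control library; the cause was not tested. The number of members called with heat was 5 to 6 in each genotype when libraries were left out. It was 0 throughout between genotypes and for the difference of the heat responses.

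Uncalled values near 0 changed sign when a library was left out. The ranges were, for BAG5 with heat in wild type, -0.01 to 0.61. For prp43a against wild type after heat they were -0.18 to 0.17 for BAG1, -0.30 to 0.02 for BAG4 and -0.32 to 0.06 for BAG6. At control temperature they were -0.12 to 0.05 for BAG1, -0.54 to 0.12 for BAG2, -0.08 to 0.19 for BAG3, -0.05 to 0.57 for BAG5 and -0.20 to 0.13 for BAG6. For the difference of the heat responses they were -0.14 to 0.20 for BAG1, -0.50 to 0.15 for BAG2, -0.09 to 0.23 for BAG4, -0.17 to 0.45 for BAG5 and -0.28 to 0.10 for BAG6.

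The labels do not say whether replicate numbers pair the libraries. Deviations of same-numbered libraries correlated at -0.028 to 0.028. That shows no shared shift, but cannot tell whether same-numbered libraries were grown or handled together. With the replicate block, 6 members were called with heat in each genotype and 0 otherwise, and 10 genes in all at control temperature, where the fit without it called 14. That count was 3 to 48 with a library left out and 0 in a fit of the compared groups alone. Of called genes, 61.5% rose with heat in prp43a and 60.5% in wild type, against 49.2% and 49.6% with median-of-ratios scaling. Of 1246 counts for the partner lists under the alternatives, 20 moved by over 1.5 times, nearly all for the single called calmodulin CAM2. Many of these counts were 0 with and without the alternative, as between genotypes, so the total says little about how stable the heat calls were. BAG2 after heat, BAG5 and untreated BAG6 rest on at most 28 reads per library.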
